A study of Mus musculus with 14 samples.

Results

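PU.1, Spi-B, IRF4 and IRF8 are transcription factors encoded by Spi1, Spib, Irf4 and Irf8. They were followed here as 4 of the 18193 genes that had a probe set with a single gene symbol on the 3' expression arrays of this series. Probe sets were chosen by symbol, older aliases included: 6 of the 45101 on the array named a member, with 1 each for Spi1 and Spib and 2 each for Irf4 and Irf8. Where a gene had 2, the probe set with the higher mean over all arrays leads and the second is given beside it. All values are log2 signals, so a difference of 1 is a doubling, and the lowest value in the table was 2.32. Groups with every array less than 0.5 above it are described as at the floor.

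The 14 arrays hold RNA of bone marrow cells sorted from adult C57Bl6 mice aged 8 to 12 weeks and fall into 6 groups. WT engrafted and Pax5KO engrafted cells (n = 3 each) descend from wild type or Pax5 knockout fetal liver taken at day 15 of gestation. Both kinds of donor carried a reporter of λ5, a chain of the surrogate light chain, and were transplanted into irradiated recipients; B220+ reporter+ marrow cells were sorted 4 weeks later, so both groups share the transplant, the irradiation and the reporter. The other 4 groups (n = 2 each) came from wild type marrow without a transplant: ProB cells, PreB cells and common lymphoid progenitors (CLP) without or with surface Ly6D, written Ly6D- CLP and Ly6D+ CLP. The titles call the arrays biological replicates; whether any mice were pooled, how the Pax5 allele was made and the gates beyond the group names are not given in the sources used here.

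PU.1 and Spi-B belong to the ETS family and recognise nearly the same purine-rich DNA sequence. IRF4 and IRF8 bind DNA poorly on their own and are recruited by PU.1 or Spi-B to composite elements in B cell genes, among them the enhancers of the immunoglobulin light chains. PU.1 is required for myeloid cells and for early lymphoid progenitors, Spi-B is used later in the B lineage and in plasmacytoid dendritic cells, and IRF4 and IRF8 act redundantly in pre-B cells, where they limit the surrogate light chain and promote light chain recombination.

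The sequences just upstream of Spib, Irf4 and Irf8 are shown because these 3 genes fell together in cells labelled Pax5KO. They come from RefSeq (GRCm38.p6), run 5′ to 3′ on the strand of the gene, and stop before the first annotated base of the gene. Capitals mark matches to the core bound by PU.1 (GAGGAA on either strand; the match here lies on the opposite strand, so its reverse complement is printed) and to a TATA box, named with its letters after the sequences.
Spib (chr7:44532088-44532321, minus strand): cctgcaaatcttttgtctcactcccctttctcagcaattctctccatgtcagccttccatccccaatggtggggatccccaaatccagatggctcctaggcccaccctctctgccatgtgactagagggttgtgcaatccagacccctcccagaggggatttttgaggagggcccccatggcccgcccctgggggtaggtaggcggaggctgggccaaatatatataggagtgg
Irf4 (chr13:30748983-30749232, plus strand): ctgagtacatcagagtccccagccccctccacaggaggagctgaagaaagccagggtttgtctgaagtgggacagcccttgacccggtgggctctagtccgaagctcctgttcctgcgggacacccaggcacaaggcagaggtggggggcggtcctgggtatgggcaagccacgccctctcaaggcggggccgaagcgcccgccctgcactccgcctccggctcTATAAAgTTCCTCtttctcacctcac
Irf8 (chr8:120736108-120736357, plus strand): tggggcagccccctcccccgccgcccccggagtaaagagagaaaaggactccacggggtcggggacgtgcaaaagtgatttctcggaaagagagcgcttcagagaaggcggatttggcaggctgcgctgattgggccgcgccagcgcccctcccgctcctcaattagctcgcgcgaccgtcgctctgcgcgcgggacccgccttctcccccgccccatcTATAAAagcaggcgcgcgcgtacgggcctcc

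The Irf4 window held GAGGAA once, its last base 14 bases before the first annotated base of the gene, and TATAAA once. The Irf8 window shown held TATAAA once. Spib had no match to the letters searched. A second Irf8 window, chr8:120738389-120738638, lies within the annotated gene, held no match and is not shown. On both strands, GAGGAA occurred in 23.1% and TATAAA in 13% of 27025 windows of the same kind, 250 bases long (that of Spib has 234). Also searched were 3 gapped motifs, each of 2 blocks of 4 letters with any 2 bases between them: GGAA and GAAA, the composite ETS-IRF element (2.4% of windows), GAAA and GAAA, an interferon-stimulated element (3.0%), and TCCC and GGGA, bound by EBF1 (0.8%). None of the 3 windows shown held any of these, of which the first and second can overlap each other. These letters are a description of the windows, and enhancers lie outside them. Spi1 itself lies at chr2:91082374-91115759.

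The targeted gene, Pax5, had 2 probe sets, which did not move alike. The brighter read 7.95, 7.92 and 7.57 on the arrays labelled Pax5KO and 6.76, 6.18 and 6.60 on the WT engrafted arrays, so all 3 arrays labelled Pax5KO lay above the WT arrays. Its difference was 1.30 (adjusted p = 0.446 over all probe sets by limma, SE 0.601). The dimmer read 2.32, 2.32 and 2.34 under the Pax5KO label, at the floor, and 3.42, 3.38 and 2.43 in WT cells, a difference of -0.75 (adjusted p = 0.669 over all probe sets by limma, SE 0.442). Neither was called. The sources used here do not say which part of the gene was deleted or where these probe sets lie relative to it, so a loss of Pax5 was not shown on the arrays and Pax5KO is used as the name the labels give.

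Each group was also set against marker genes. The mean level over 8 early B lineage markers was 5.52 and 5.58 on the Ly6D- CLP arrays and lay between 9.76 and 11.02 on the other 12. Cd79a, a signalling chain of the B cell receptor, was at the floor in Ly6D- CLP. Ly6d read 3.61 and 3.02 in Ly6D- CLP and 11.25 and 10.30 in Ly6D+ CLP. Over 11 granulocyte and monocyte markers the mean level was 7.27 and 7.47 in PreB cells. It was 7.13 on Ly6D- CLP array 2 against 3.66 on array 1, and between 2.69 and 4.62 on the other 10 arrays. The gap between the 3' and 5' actin probe sets, a sign of RNA quality, was 7.27 and 6.71 on the PreB arrays and 2.51 to 5.57 elsewhere. For Gapdh the same gap did not set PreB apart, at 4.88 and 4.35 against 2.40 to 5.79 elsewhere. The transcript of X inactivation, Xist, exceeded 10 on the ProB and Pax5KO arrays and WT engrafted array 3 and was below 3 on the other 8. It thus split the WT engrafted arrays and fully separated ProB from Ly6D+ CLP and from PreB. At the steps to ProB and to PreB the difference in Xist and the stage cannot be told apart. Comparisons were made with limma over all genes, and a gene was called at a Benjamini-Hochberg adjusted p under 0.05. In sorted populations, fewer cells with a transcript and less transcript per cell cannot be told apart.

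Spi1, the gene of PU.1, was present in every group and lowest in ProB cells. The Ly6D- CLP arrays read 7.44 and 7.23, those of Ly6D+ CLP 7.28 and 6.89, those of ProB 4.69 and 5.08, and those of PreB 6.03 and 6.39. On the engrafted arrays it read 6.90, 7.04 and 7.31 in WT and 7.14, 6.81 and 6.73 in cells labelled Pax5KO. Among the CLP and engrafted groups, neighbours in level overlapped, although both Ly6D- CLP arrays lay above all arrays labelled Pax5KO. The PreB arrays lay below all of these groups, and the ProB arrays lay below PreB without overlap. In the order Ly6D- CLP, Ly6D+ CLP, WT engrafted, Pax5KO engrafted, PreB, ProB, the first 3 steps were at most 1.1 SE of the fit and did not exceed the spread. Those from Pax5KO to PreB (0.68, SE 0.20) and from PreB to ProB were 3.4 and 6.0 SE.

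Spib, the gene of Spi-B, was near the floor in Ly6D- CLP and higher in each following stage. Signals were 2.63 and 3.16 for Ly6D- CLP, 6.85 and 5.51 for Ly6D+ CLP, 8.28 and 8.43 for ProB, and 11.74 and 11.66 for PreB. It was highest in WT engrafted cells, at 12.79, 13.10 and 12.59, and read 7.71, 7.58 and 8.37 in cells labelled Pax5KO. No 2 groups overlapped except Pax5KO and ProB, whose means of 7.89 and 8.36 were 1.2 SE apart; the other neighbours in the order were 2.9 to 7.8 SE apart. Of the members it spanned the widest range between group means, from 2.90 to 12.83.

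Irf4 ran a course close to that of Spib. Its leading probe set was at the floor in Ly6D- CLP (2.35 and 2.5), split in Ly6D+ CLP (5.94 and 2.95), and read 8.76 and 9.14 in ProB and 11.10 and 11.98 in PreB. WT engrafted cells read 11.38, 11.68 and 10.86 and cells labelled Pax5KO 7.15, 7.56 and 6.80. PreB and WT engrafted overlapped (0.3 SE apart), while Pax5KO lay below ProB without overlap by 1.78 (2.4 SE). The second probe set was dimmer: it was at the floor in both CLP groups, ProB and Pax5KO, and read 4.13 and 5.06 in PreB and 4.49, 3.42 and 4.94 in WT engrafted cells. It therefore separated the same high groups but could not follow the earlier stages.

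Irf8 was high in both CLP groups, dipped in ProB and was high again in PreB. Signals were 11.99 and 12.34 for Ly6D- CLP, 12.07 and 12.57 for Ly6D+ CLP, 9.95 and 10.26 for ProB, and 12.12 and 11.80 for PreB. WT engrafted cells read 11.67, 12.02 and 11.61, and cells labelled Pax5KO 10, 10.14 and 10.17. The arrays thus fell into an upper set of 4 groups, whose neighbours overlapped and differed by at most 1.0 SE, and a lower set of Pax5KO and ProB, with equal means of 10.10 for each group. The gap between the sets was 9.4 SE. The second probe set had the same 2 lowest groups, with Pax5KO at 6.24 ± 0.78 (SD, n = 3) and ProB at 5.96 ± 0.12 (SD, n = 2) against means of 7.10 to 7.86 elsewhere, but Pax5KO array 3 (7.11) lay within the range of Ly6D- CLP (7.45 and 6.76).

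**Figure D1:**
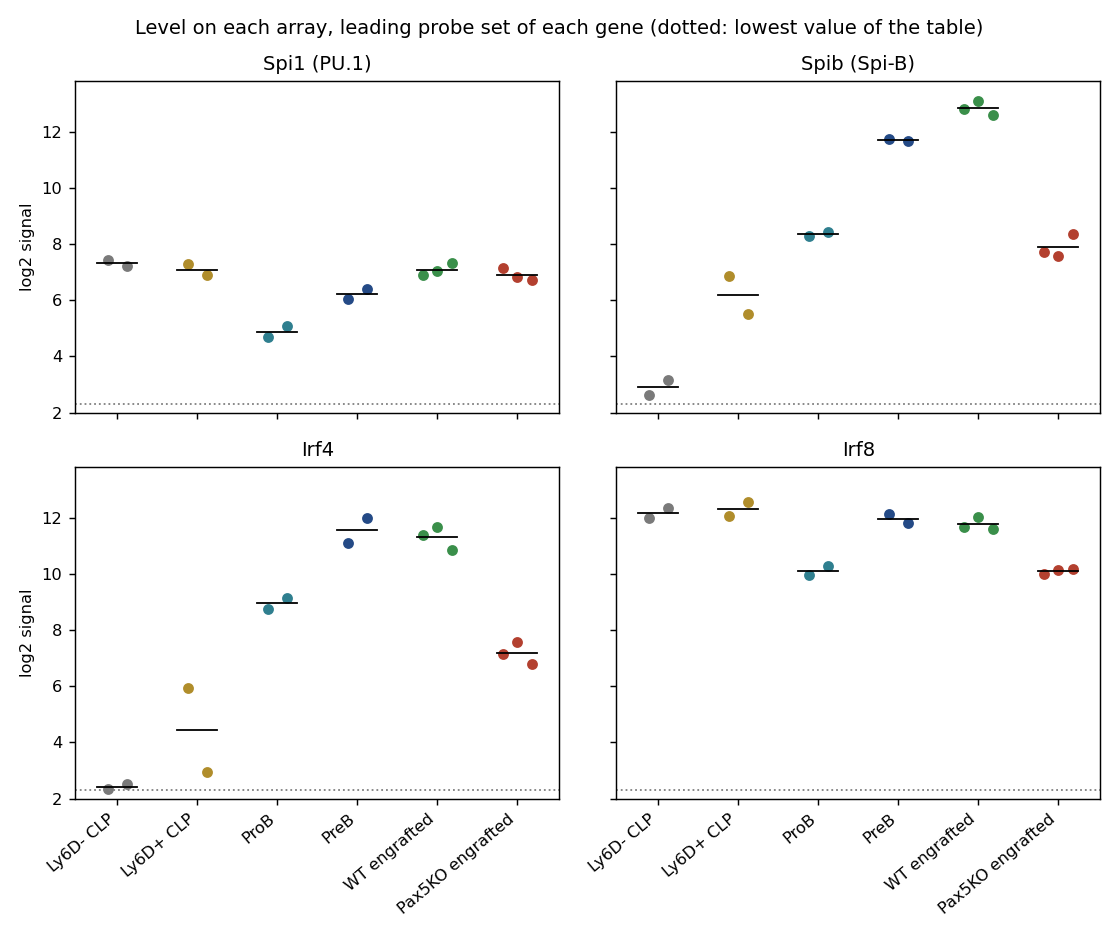
Log2 signal (y axis) of the leading probe set of each gene on the 14 arrays, by group (x axis); points are arrays, bars are group means and the dotted line is the lowest value of the table, 2.32. Spib and Irf4 climb from Ly6D- CLP to PreB and are lower in Pax5KO than in WT engrafted cells, Irf8 is low in ProB and Pax5KO, and Spi1 is lowest in ProB.

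**Figure D2:**
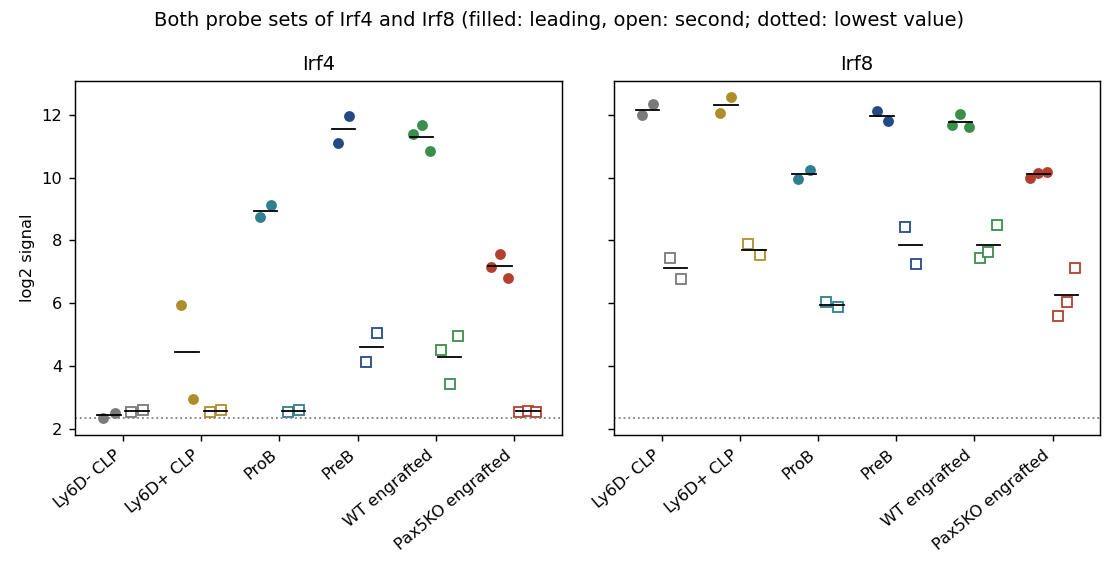
Log2 signal (y axis) of both probe sets of Irf4 and Irf8 by group (x axis); filled circles are the leading and open squares the second probe set, bars are group means and the dotted line is the lowest value. The second Irf4 probe set rises above the floor only in PreB and WT engrafted cells, and the second Irf8 probe set is lowest on average in ProB and cells labelled Pax5KO.

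How these factors differ between B220+ reporter+ cells labelled Pax5KO and WT was read from the 2 engrafted groups, with the Pax5 signals above in mind. Spib, Irf4 and Irf8 fell and Spi1 was not called. Of all genes, 5.94% were called in either direction, 2.29% lower and 3.64% higher in cells labelled Pax5KO. Spib averaged 12.83 ± 0.26 in WT and 7.89 ± 0.42 in cells labelled Pax5KO (SD, n = 3 each). It fell by 4.94 (adjusted p = 7.75e-05 by limma, SE 0.348), 30.7-fold, the 44th largest fall of 18193 genes. Irf4 fell by 4.14 (adjusted p = 0.00713 by limma, SE 0.66), 17.6-fold, to 7.17 ± 0.38 against 11.31 ± 0.42 (SD, n = 3 each). Irf8 fell by 1.67 (adjusted p = 0.000818 by limma, SE 0.178), 3.17-fold, from 11.77 ± 0.22 to 10.10 ± 0.09 (SD, n = 3 each). In each of these 3 genes all arrays labelled Pax5KO lay below all WT arrays; the arrays of the 2 groups did not overlap for 19.6% of all genes.

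Spi1 differed by -0.19 (adjusted p = 0.883 by limma, SE 0.181), and its 95% confidence interval, from -0.60 to 0.23, does not reach the size of the other 3 changes. The second Irf4 probe set also fell, by 1.74 (adjusted p = 0.0341 over all probe sets by limma, SE 0.362), a lower bound because cells labelled Pax5KO were at the floor. The second Irf8 probe set gave nearly the same size, -1.61 (SE 0.475), but was not called (limma adjusted p = 0.135). With WT array 3, which has high Xist as the arrays labelled Pax5KO do, as the single WT array, Spib differed by -4.71, Irf8 by -1.51 and Irf4 by -3.69. The limma adjusted p of 0.00435, 0.0218 and 0.145 then rest on the spread within the other groups, which that 1 array is assumed to share, and Irf4 was not called.

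Markers of later B cells and of progenitors differed between the same groups. The mean level over 6 mature B markers was 5.98 to 7.53 in WT engrafted and 2.86 to 3.37 in cells labelled Pax5KO, with Fcer2a, Cr2 and Ccr6 at the floor under the Pax5KO label; 3 of the 6 fell. The mean level over 7 CLP markers was 6.99 to 7.60 in WT engrafted cells and 9.33 to 10.21 in cells labelled Pax5KO: 5 of the 7 rose (Flt3, Cd27, Kit, Dntt and Notch1) and none fell, with a median difference of 2.89.  Over 8 plasmacytoid dendritic markers the mean level was 4.22 to 4.44 in WT and 4.64 to 5.51 in cells labelled Pax5KO. Of these Bst2 rose by 1.35 (adjusted p = 0.0165 by limma), Ccr9 was at the floor in WT and differed by 2.73 without a call (limma adjusted p = 0.0813), Siglech and Cd209d were at the floor in both groups, and the median difference was 0.40. Of 11 granulocyte and monocyte markers none was called, with a median difference of -0.36. S100a8 read 7.32, 7.27 and 8.25 in WT and 5.05, 4.59 and 6.25 in cells labelled Pax5KO. The part of these markers in the changes of Spib, Irf4 and Irf8 and in the level of Spi1 was not tested.

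From Ly6D- to Ly6D+ CLP, a comparison of progenitors before and after they turn towards the B lineage, Spib alone of the 4 was called. Of all genes, 1.45% were called, 0.813% upward and 0.638% downward. Spib averaged 2.90 ± 0.38 before and 6.18 ± 0.95 after (SD, n = 2 each). It rose by 3.28 (adjusted p = 0.00615 by limma, SE 0.427), 9.72-fold, with no overlap, as for 22.4% of all genes; Ly6D- CLP array 1 lay within 0.5 of the lowest value. The call ended with array weights (limma adjusted p = 0.0527) and with only these 4 arrays in the fit (limma adjusted p = 0.756, where 1 gene in all was called). Irf4 differed by 2.02 (adjusted p = 0.425 by limma, SE 0.808), which rests on Ly6D+ CLP array 1: without it the difference was 0.53, and without array 2 it was 3.52 (limma adjusted p = 0.00458). Spi1 differed by -0.25 (95% confidence interval -0.76 to 0.26) and Irf8 by 0.15 (-0.34 to 0.65). On Ly6D- CLP array 2, which carried granulocyte transcripts (S100a8 at 10.59 against 2.39 on array 1), Spi1 was 7.23 against 7.44. These are single arrays, and the part of granulocyte transcripts in the Spi1 signal was not tested.

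From Ly6D+ CLP to ProB the 4 genes parted: Spib and Irf4 rose while Spi1 and Irf8 fell. Of all genes, 7.29% were called, 1.93% upward and 5.36% downward. Irf4 rose by 4.50 (adjusted p = 0.0121 by limma, SE 0.808) from 4.45 ± 2.11 to 8.95 ± 0.27 (SD, n = 2 each), 22.7-fold, the 27th largest rise. Its size and rank rest on Ly6D+ CLP arrays that read 5.94 and 2.95. Without Ly6D+ CLP array 1 the Irf4 difference was 6, and without array 2 it was 3.01. Spib rose by 2.18 (adjusted p = 0.0179 by limma, SE 0.427), 4.53-fold. Spi1 fell by 2.20 (adjusted p = 0.000903 by limma, SE 0.222), 4.59-fold, from 7.08 ± 0.28 to 4.89 ± 0.28 (SD, n = 2 each). Irf8 fell by 2.21 (adjusted p = 0.000829 by limma, SE 0.217), 4.64-fold, from 12.32 ± 0.36 to 10.10 ± 0.22 (SD, n = 2 each). The arrays of the 2 groups did not overlap for any of the 4, nor for 33.8% of all genes. Xist also separated these groups, at 10.71 and 11.49 in ProB and 2.33 on both Ly6D+ CLP arrays.

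Markers of progenitors and of plasmacytoid dendritic cells fell at the same step as Spi1 and Irf8. Of 7 CLP markers 4 fell (Flt3, Cd27, Ly6d and Notch1) and none rose, with a median difference of -4.10; their mean level was 10.96 to 10.99 in Ly6D+ CLP and 7.10 to 7.30 in ProB. Of 8 plasmacytoid dendritic markers 3 fell (Ccr9, Cox6a2 and Bst2) and none rose, with a median of -0.59 and mean levels of 5.60 to 5.78 and 4.48 to 4.52. Siglech, Pacsin1 and Cd209d were at the floor in both groups. Their part in the changes of the 4 genes was not tested.

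Quantile normalization moved the median difference of all genes in this comparison by 0.132 and the share of calls that were upward from 26.5% to 39.6%. Spi1 then fell by 1.85 and Irf8 fell by 2.06, and both stayed called. With only these 4 arrays in the fit, where 3 genes in all were called, no member was called (limma adjusted p of 0.184 for Spi1, 0.403 for Spib, 0.435 for Irf4 and 0.192 for Irf8). Array weights ended the Spib call (limma adjusted p = 0.088). Without ProB array 2 the Spib and Irf4 calls ended (limma adjusted p of 0.0812 and 0.0613, at 2.10 and 4.31). The second Irf8 probe set fell by 1.74 without a call (limma adjusted p = 0.163), and the second Irf4 probe set was at the floor in both groups.

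From ProB to PreB, Spib, Irf8 and Spi1 rose, and Irf4 was higher without a call. Of all genes, 11.5% were called, 6.35% upward and 5.19% downward; quantile normalization moved the upward share of the calls from 55% to 47.1%. Spib rose by 3.34 (adjusted p = 0.00172 by limma, SE 0.427), 10.1-fold, from 8.36 ± 0.11 to 11.70 ± 0.06 (SD, n = 2 each). Irf8 rose by 1.86 (adjusted p = 0.00114 by limma, SE 0.217), 3.62-fold, to 11.96 against 12.32 in Ly6D+ CLP. Spi1 rose by 1.32 (adjusted p = 0.00644 by limma, SE 0.222), 2.5-fold, from 4.89 ± 0.28 to 6.21 ± 0.25 (SD, n = 2 each). Irf4 differed by 2.59 (adjusted p = 0.0808 by limma, SE 0.808) and was called when dim genes were left out of the adjustment (0.0185); its second probe set rose by 2.03 from the floor (limma adjusted p = 0.0245 over all probe sets). No arrays of the 2 groups overlapped for any of the 4, nor for 41.8% of all genes. Xist separated them too, at 2.33 on both PreB arrays against 10.71 and 11.49 in ProB. With only these 4 arrays in the fit the calls of Spi1 and Irf8 ended (limma adjusted p of 0.152 and 0.0894).

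Transcripts of other cells rose at the same step. Of 11 granulocyte and monocyte markers, 7 were higher in PreB and none lower, with a median difference of 5.93, and S100a8 read 12.02 and 12.85 in PreB against 3.18 and 3.29 in ProB. Spi1 is itself expressed in granulocytes and monocytes. Csf3r, the receptor of granulocyte colony-stimulating factor, and Elane were at the floor in both groups; Itgam was so on every array and cannot serve as a marker here. Of 8 plasmacytoid dendritic markers 2 rose (Siglech and Ccr9) and none fell, with a median difference of 0.23. Klk1 and Bst2 differed by -1.55 and -0.40 without a call. Siglech read 3.60 and 5.11 in PreB and was at the floor elsewhere. The part of these markers in the rise of Spi1, Irf8, Irf4 and Spib was not tested.

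**Figure D3:**
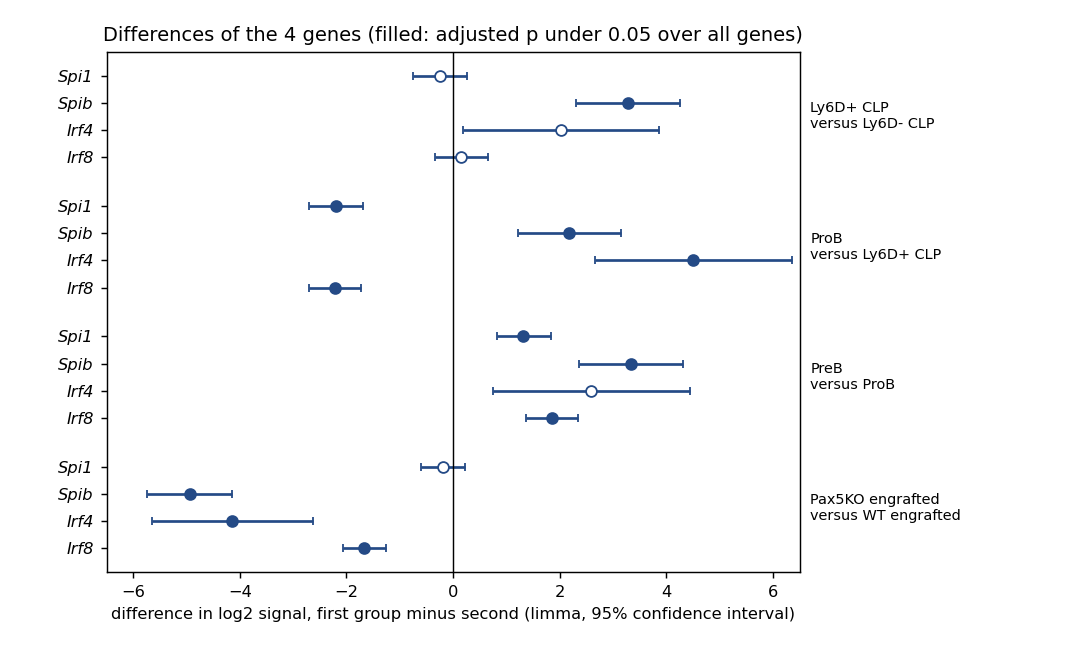
Difference in log2 signal (x axis, first group minus second, with 95% confidence intervals from limma) of the 4 genes (y axis) in the 4 comparisons; filled points passed an adjusted p of 0.05 over all genes. From Ly6D+ CLP to ProB Spi1 and Irf8 lie left of 0 and Spib and Irf4 right of it, and in Pax5KO against WT engrafted cells Spi1 is the member whose interval includes 0.

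Set side by side, cells labelled Pax5KO stood with ProB cells for Irf8 (10.10 in each) and Spib (7.89 and 8.36), below them for Irf4 (7.17 and 8.95) and above them for Spi1 (6.89 and 4.89). WT engrafted cells stood with PreB cells for Irf4 (11.31 and 11.54) and Irf8 (11.77 and 11.96) and above them for Spib (12.83 and 11.70) and Spi1 (7.08 and 6.21). The transplant and the stage cannot be told apart between engrafted groups and groups without a transplant, and beyond the gaps in SE above no test was made across them. Neighbouring steps also share arrays: ProB and Ly6D+ CLP each enter 2 of the comparisons.

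The genes whose levels over the 14 arrays were most like each member were ranked among 6417 genes with a mean of at least 4 and a range of at least 2. For Spib these were Dhx40 (Pearson r 0.966), Irf4 (0.963) and Cd24a (0.953), the heat-stable antigen that rises on B cell precursors. For Irf4 they were Spib, Ttpal (0.961) and Ankrd33b (0.953). For Irf8 they were H2-Ob (0.971), a chain of the H2-O molecule that modulates peptide loading on MHC class II, Abhd17b (0.918) and Ncf1 (0.899), a subunit of the phagocyte oxidase. For Spi1 they were Fam117a (0.955), Itprip (0.943) and Rsrp1 (0.934). Between members the correlation was 0.96 for Spib with Irf4, 0.49 for Spi1 with Irf8 and -0.34 for Spi1 with Irf4. The arrays share groups, so these values describe group patterns and carry no test.

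Other members of both families were read in the same way. Over all genes, the share called was 5.94% between engrafted groups, 1.45% between CLP groups, 7.29% to ProB and 11.5% to PreB. Among genes with a mean of at least 4 it was 14.9%, 2.46%, 18.6% and 27.5%, in that order. The counts here and in the gene lists below are to be read beside these shares. Of 6 other IRF genes measured, none was called in cells labelled Pax5KO (median difference -0.22, against 0 over all genes); the nearest was Irf7, the interferon-induced regulator, at 1.29 (limma adjusted p = 0.0525). From Ly6D+ CLP to ProB 5 of the 6 fell and none rose, with a median of -1.71, as did Irf8: the differences were -2.15 for Irf7, -2.13 for Irf9, the DNA-binding part of the interferon-stimulated gene factor, -1.72 for Irf2 and -1.70 for Irf5. Between ProB and PreB 3 of the 6 rose, namely Irf2 by 2.36, Irf1 by 2.03 and Irf5 by 1.46, and none fell. None was called between the CLP groups.

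Among 15 other ETS genes 2 were higher and none lower in cells labelled Pax5KO, with a median difference of -0.12. Etv6, a repressor, averaged 10.49 ± 0.48 (SD, n = 3) under the Pax5KO label and 7.74 ± 0.15 (SD, n = 3) in WT cells. It rose by 2.75 (adjusted p = 0.000321 by limma, SE 0.249), and Elk3 by 1.86 (limma adjusted p = 0.0333). The same 2 genes were the ETS genes that fell from Ly6D+ CLP to ProB, Elk3 by 3.72 and Etv6 by 2.97. At the step to PreB Ets2 rose by 4.82, Elk3 by 2.64 and Fli1 by 2.61, and Erg, a factor of stem cells and early progenitors, fell by 3.99. Spic, the closest relative of PU.1 and Spi-B, had group means of at most 2.86 and was not called in any of the 4 comparisons.

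**Figure D4:**
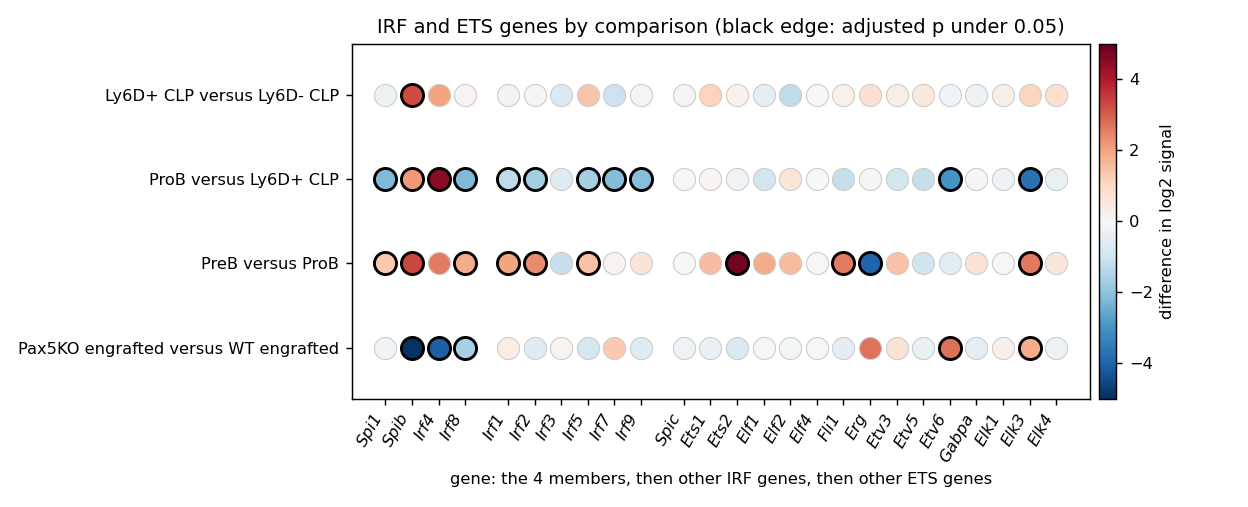
Difference in log2 signal (colour, red higher and blue lower in the group named first) of the 4 members, 6 other IRF genes and 15 other ETS genes (x axis) in the 4 comparisons (y axis); black edges mark an adjusted p under 0.05. Spib, Irf4 and Irf8 are blue with black edges in Pax5KO against WT engrafted cells, where Etv6 and Elk3 are red with black edges.

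Among 21 measured genes that act upstream of these factors or with them, 2 were lower and none higher in cells labelled Pax5KO. Bach2, a repressor of myeloid genes in B cell progenitors, fell by 3.42 (adjusted p = 0.00242 by limma, SE 0.443), and Gfi1b by 1.78. Ebf1 and Runx1, which act on the Spi1 locus in progenitors, differed by -1.14 and 1.14 without a call (limma adjusted p of 0.195 and 0.147). From Ly6D- to Ly6D+ CLP, where Spib rose, Ebf1 rose by 5.64, Foxo1 by 3.75 and Gata1, from the floor, by at least 1.42, and none fell. From Ly6D+ CLP to ProB Bcl6 rose by 3.26 and Cebpb, a myeloid regulator, and Gata1 reached the floor, with differences of -2.82 and -1.42 that are lower bounds in size; Myb differed by -1.31. In PreB against ProB 8 rose, led by Rel (4.81), Jun (3.05), Bcl6 (2.98) and Cebpb (at least 2.64, from the floor), and none fell; Jun and Cebpb are abundant in myeloid cells too.

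The genes described as targets were read by cell lineage. Of 22 measured myeloid genes described as PU.1 targets, 3 were higher and 2 lower in cells labelled Pax5KO, and the median difference was 0. Lyz2, a lysozyme, and Fcer1g, a signalling chain of Fc receptors, each rose by 2.52 and Csf2rb, the common receptor chain of interleukin-3 and GM-CSF, by 1.42, while the oxidase subunits Ncf1 and Cyba differed by -2.77 and -2.47. From Ly6D+ CLP to ProB, where Spi1 fell, 5 of the 22 fell and Cyba rose by 2.62; the falls were led by Mpo (-7.64), Csf2rb (-4.98), Ncf1 (-4.86) and Fcer1g (-3.44). In PreB against ProB, where granulocyte markers were high, 10 rose and none fell, led by Cybb (6.26), Tyrobp (5.53), Ncf1 (5.51) and Csf1r (4.91). Between the CLP groups only Csf3r was called, lower by 2.79 in Ly6D+ CLP.

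Of 16 B lineage genes described as targets of PU.1 or Spi-B, 7 were lower and 1 was higher in cells labelled Pax5KO, with a median of -0.87. Over all genes, 2.29% were called lower and 3.64% higher in this comparison. The falls were led by Fcgr2b, the inhibitory Fc receptor (-5.73), Cd22, an inhibitory co-receptor (-4.43), Cd79a (-3.10) and Ciita, the activator of MHC class II genes, which reached the floor (-1.81, a lower bound in size); Flt3 rose by 5.90. Cd79a is a known target of Pax5 as well. Between the CLP groups 4 rose, led by Pou2af1, a co-activator that works with octamer factors, by at least 7.92 from the floor, and Blnk, an adaptor of the pre-B receptor, by 3.25. From Ly6D+ CLP to ProB 3 rose and 2 fell, among them Cd22 (5.71) and Flt3 (-6.55). At the step to PreB 5 rose and none fell, led by the receptor gene P2ry10 by 6.34 and the kinase Syk by 2.41.

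Of 11 measured pre-B genes described as targets of IRF4 or IRF8, 3 were lower and none higher in cells labelled Pax5KO, with a median of -0.87. Ikzf3, which encodes Aiolos, a repressor of the surrogate light chain, reached the floor (-5.83, a lower bound in size). Cd40 differed by -4.32 and Cdkn1b, an inhibitor of the cell cycle, by -1.37. In PreB against ProB 6 rose and 3 fell, with a median of 1.97. The rises were led by Cxcr4 (4.23), Cd40 (4.04), Ikzf3 (3.60) and Cdkn1b (3.56), and the falls were Igll1 (-4.49) and Vpreb1 (-3.09), the genes of the surrogate light chain, and Ccnd3 (-4.25), a cyclin of dividing pre-B cells. Between the CLP groups Vpreb1, Igll1, Rag1 and Ccnd3 rose and none fell, and from Ly6D+ CLP to ProB Ikzf3 rose by at least 4.32 from the floor and Rag1 differed by -3.57. None of these lists was tested as a set, and the lists were written from general knowledge, so a target listed here is not shown to be bound in these cells.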

How the data were processed

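RNA of 14 sorted marrow samples was read on Affymetrix 3' arrays. The deposited table holds 1 log2 signal per probe set and array. RMA, GCRMA and limma are named, per the submitters' processing notes; their roles and versions are not given in the sources used here. Of 45101 probe sets, 34945 had 1 gene symbol in the platform annotation. Of these, 34741 were named through RefSeq (GRCm38.p6) and the rest kept the platform symbol. Each of 18193 genes was represented by its probe set of highest mean. Array medians lay between 2.41 and 2.52, so the values were not rescaled, and 31.3% to 36.8% of probe sets per array were at the lowest value. No detection call was used, so differences that involve a floor group are lower bounds in size. The number of arrays limits the precision.

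Differences were tested with limma 3.58.1 (lmFit and eBayes in R 4.3.3), fitting 6 group means to the 14 arrays together (8 residual degrees of freedom), two-sided, adjusted by Benjamini-Hochberg over all genes; the script was checked on simulated data. SE and 95% confidence intervals come from that fit. Equal replicate numbers of the engrafted groups correlated in their deviations from the group means at 0.13, 0.30 and 0.54 over genes, each over 0.1, so the numbers were also fitted as a block; unequal numbers reached 0.39 (Pax5KO 1 with WT 2). Alternatives were other scalings, filters, probe set rules, array weights, fewer arrays and each array left out. Every member is named with all its probe sets; of each gene list the text names up to 4 called genes of largest change per direction and comparison, and for each member the 3 genes of highest correlation. Members and lists were chosen with earlier results of these data known, and no set test was made.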

Additional observations from a re-analysis of the deposited data

How the results depend on the processing

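For the 16 differences of the 4 genes, 205 of 228 alternative values were counted as unchanged in direction and side of the threshold. Among these is the second Irf4 probe set between CLP groups, at 0.00, which has no direction. Several alternatives, such as the filters and the replicate block, left the difference as it was and could change only its adjusted p. Spi1 and Spib between the engrafted groups, Spi1 between the CLP groups and Spib from ProB to PreB were unchanged in every alternative. The replicate block changed no call: with it Spib, Irf4 and Irf8 differed by -4.94, -4.14 and -1.67 between the engrafted groups (limma adjusted p of 0.00102, 0.0209 and 0.00212). With only the compared groups fitted (4 arrays at the stage steps), called genes numbered 697, 1, 3 and 487 from the engrafted comparison to the step to PreB. The calls of Spib between CLP groups (3.28), of Spi1 (-2.20), Spib (2.18), Irf4 (4.50) and Irf8 (-2.21) at the step to ProB, and of Spi1 (1.32) and Irf8 (1.86) at the step to PreB then ended, with fewer residual degrees of freedom. Array weights gave 3065, 102 and 368 called genes in the first 3 comparisons and ended the Spib calls between CLP groups (3.28) and at the step to ProB (2.18). Single probe sets gave 414 calls between CLP groups. The second Irf8 probe set was not called at -1.61 (engrafted), -1.74 (to ProB) and 1.88 (to PreB); the second Irf4 probe set was 0.00 at the step to ProB and called at 2.03 at the step to PreB. Irf4 at the step to PreB was also called with averaged probe sets (2.31) and, with fewer genes tested, without dim genes (2.59) or genes at the floor (2.59). Without the WT engrafted arrays of low Xist, an alternative chosen after seeing the data, Irf4 differed by -3.69 and was not called. Leaving out 1 array gave 676 to 1034 called genes between engrafted groups (676 without Pax5KO array 1 and 718 without WT array 1), 694 to 1144 between CLP groups and 1060 to 2129 at the step to ProB (2129 without ProB array 1). It gave differences of -0.10 to 0.41 for Irf8 and 0.53 to 3.52 for Irf4 between CLP groups, and 1.51 to 2.85 for Spib and 3.01 to 6 for Irf4 at the step to ProB. A group left with 1 array is assumed to vary like the others. Causes of these changes were not tested beyond the smaller fits named.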
